A study of Mus musculus with 12 samples.

Results

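Methylmalonyl-CoA mutase (Mmut, also written Mut) and 9 genes that work with it in propionate and cobalamin metabolism were examined in hippocampus of the manic Madison (MSN) strain and of hsd:ICR (ICR) mice. The genes were Pcca, Pccb, Mcee, Mmut, Mmaa, Mmab, Mmachc, Mmadhc, Mtr and Mtrr. Each was chosen by its symbol in the platform annotation, and each had 1 transcript cluster, a set of probes along a transcript, so that 10 of 21789 clusters with a single gene name are described. MSN mice are an inbred strain, derived from the outbred ICR stock that served as control. Their ancestors were selected for high wheel running, then bred to keep high maternal defense, and later kept without selection. RNA from macrodissected hippocampus of 6 adult male MSN mice and 6 adult male ICR mice was hybridized to 12 arrays, 1 mouse per array. The strains differ at alleles throughout the genome, and a difference between them cannot be tied to 1 allele or to the manic phenotype by this design.

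Propionyl-CoA arises in mitochondria from the breakdown of valine, isoleucine, methionine, threonine, odd-chain fatty acids and the side chain of cholesterol. Propionyl-CoA carboxylase turns it into methylmalonyl-CoA, an epimerase switches its handedness, and the mutase rearranges it to succinyl-CoA, which enters the citric acid cycle. The mutase needs adenosylcobalamin, a form of vitamin B12, and methionine synthase in the cytosol needs methylcobalamin. In humans, loss of the mutase or of the proteins that prepare its cofactor causes methylmalonic aciduria, often with damage to the nervous system.

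Mmut fell in MSN hippocampus, and the other 9 genes did not pass the test. The deposited intensities of Mmut had a lowest value of 592, a median of 646 and a highest value of 702 in MSN mice, against 788, 879 and 911 in ICR mice. The highest MSN mouse was below the lowest ICR mouse. The ratio of MSN to ICR was 0.758, which is a log2 fold change of -0.40 with a 95% interval of -0.50 to -0.30 (adjusted p = 0.00230 from limma). Every log2 fold change given here sets MSN over ICR after adding 16 to the intensity, which understates changes of dim genes, and adjusted p values are Benjamini-Hochberg values over the 23410 clusters that the annotation pairs with a gene. Clusters whose adjusted p was under 0.05 were called.
The Mmut difference passed every test that was run, on the same arrays whose earlier results led to its choice. A two-sided exact permutation test of the 6 MSN against the 6 ICR values of Mmut gave p = 0.00216, the smallest p that this design allows. Any gene without overlap between strains gets this p. The call held in 10 of 10 other settings that did not use the replicate number, with adjusted p from limma of 0.000379 to 0.00663, and without any 1 of the 12 arrays, with log2 fold changes of -0.42 to -0.37. By P-value Mmut stood at rank 9 of 23410 clusters and at rank 5 among those with a lower mean in MSN mice, while 76 clusters had a lower log2 fold change. These genes were chosen with earlier results for Mmut known, so its rank and these tests are a description and not a separate check.
In whole hippocampus, fewer cells of a type and less RNA per cell cannot be told apart. The 4 astrocyte markers Gfap, Aqp4, Slc1a3 and Gja1 had log2 fold changes of -0.30 to -0.07 with a median of -0.16. None was called by limma, where the lowest adjusted p was 0.101, but all 4 were below 0. An unadjusted p under 0.05 was reached by 2 of the 4, both lower in MSN mice, and by 12.7% of all clusters. Their summed intensity ranged from 11624 to 12889 in MSN mice, against 12602 to 14793 in ICR mice, so that the ranges overlapped, and its part in the Mmut difference was not tested. The 3 thalamus markers were also all below 0, with a median of -0.10. Aldh1l1, a folate gene that is also an astrocyte marker, was above 0, as given below. Probes that lie on sequence differing between the strains were not tested either, since the deposited table holds 1 value per cluster.

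**Figure D1:**
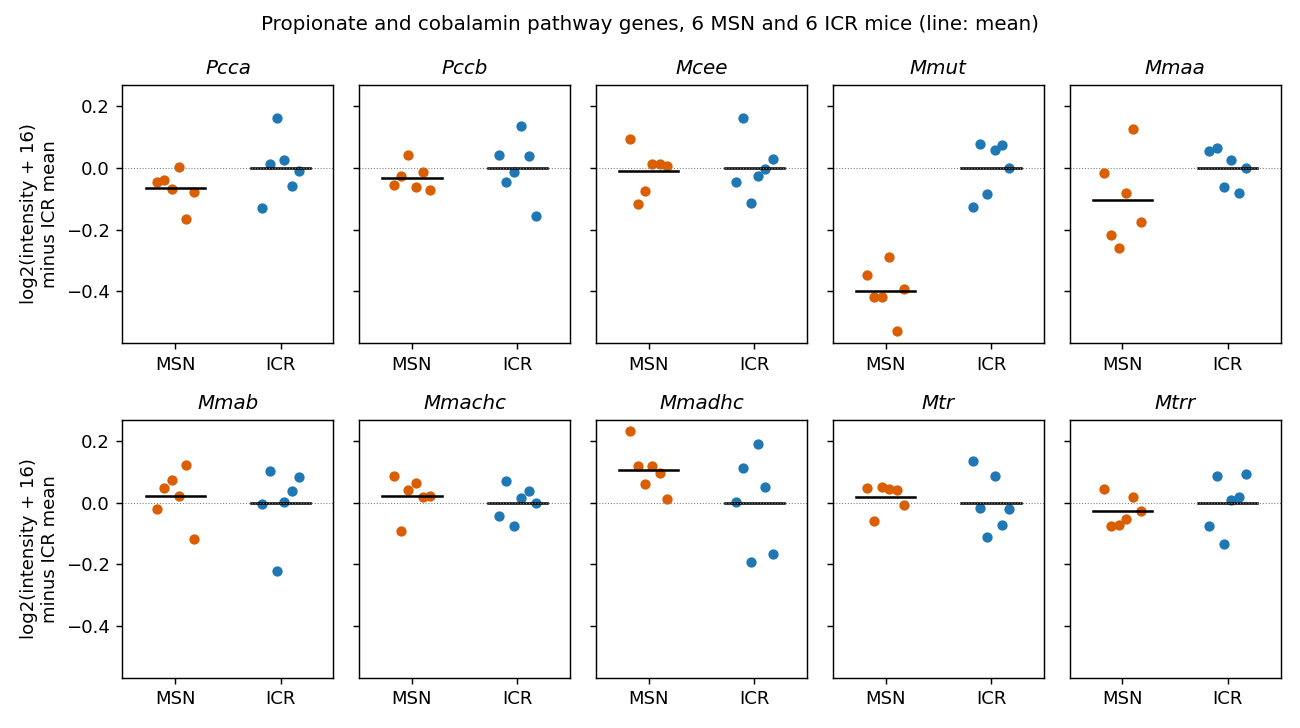
Signal of the 10 genes in each mouse, on the log2 scale after adding 16 and taking off the ICR mean, with the 6 MSN mice in orange, the 6 ICR mice in blue and black lines at strain means. In Mmut no MSN point reaches an ICR point, and in the other 9 genes the strains overlap.

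Of the 10 genes, 1 was called, and it was lower in MSN mice, whereas 0.777% of all clusters were called and 0.474% were called as lower. Likewise 1 of the 10, again Mmut, showed no overlap between strains, against 1.44% of all clusters in either direction and 0.867% with MSN lower. Log2 fold changes were below 0 in 6 of the 10 genes and in 54.5% of all clusters. The median log2 fold change of the 10 genes was -0.02, against -0.01 over all clusters. These signs depended on array scaling, since the medians were -0.01 and 0.01 after quantile normalization and 0.01 and 0.02 with arrays scaled to the same median, where 5 of the 10 genes were above 0. Of the 9 genes other than Mmut, none was called by limma and 0 reached an unadjusted p under 0.05, a level that 12.7% of all clusters reached. Their log2 fold changes ran from -0.10 to 0.11, with 4 above 0 and 5 below. The 95% interval of Mmut ended at -0.30, below the lowest bound of any of the other 9 intervals, which was -0.23 in Mmaa.

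**Figure D2:**
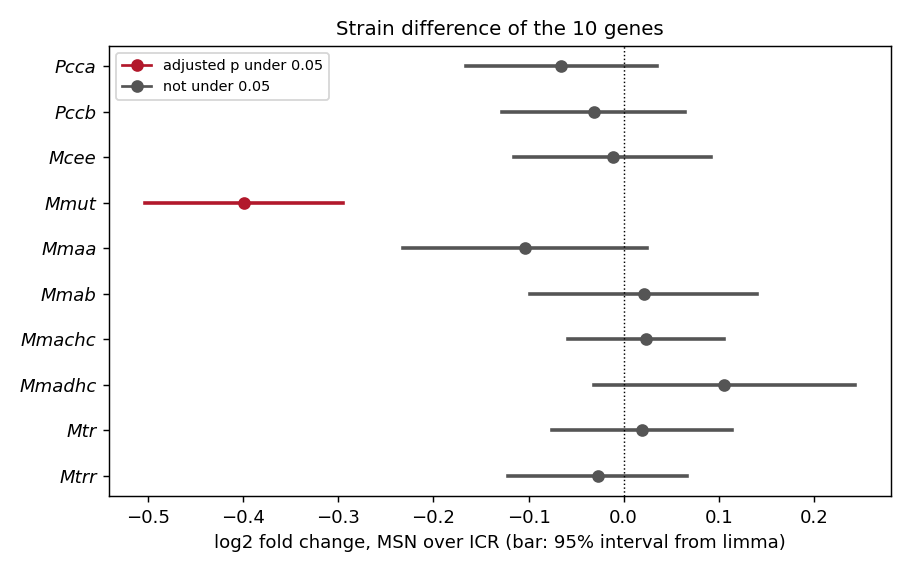
Log2 fold change of MSN over ICR for each of the 10 genes, with bars for the 95% interval from limma, and red for an adjusted p under 0.05. The interval of Mmut, -0.50 to -0.30, lies apart from 0 and from the other 9 intervals, all of which include 0.

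The enzymes that feed the mutase did not pass the test. Pcca, which encodes the biotin-bearing subunit of propionyl-CoA carboxylase, had a lowest, median and highest intensity of 894, 965 and 1006 in MSN mice, against 917, 1005 and 1126 in ICR mice. The strains overlapped, and the log2 fold change was -0.07 (95% interval -0.17 to 0.03, adjusted p = 0.609 from limma).
Pccb, the subunit that carries out the carboxyl transfer, read 651, 665 and 705 in MSN mice, against 613, 691 and 754 in ICR mice. All MSN values lay within the range of ICR mice, and the log2 fold change was -0.03 (95% interval -0.13 to 0.06, adjusted p = 0.812 from limma). The 2 subunits form 1 enzyme, and both intervals exclude a decrease of the size seen in Mmut.
Mcee, the epimerase whose product is the substrate of the mutase, read 3340, 3648 and 3865 in MSN mice, against 3348, 3587 and 4054 in ICR mice. The medians were close, and its log2 fold change of -0.01 (95% interval -0.12 to 0.09, adjusted p = 0.946 from limma) was above 0 with arrays scaled to the same median.

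The genes that give the mutase its cofactor did not pass either. Mmaa encodes a GTPase that escorts adenosylcobalamin to the mutase and guards its exchange. Its lowest, median and highest intensity was 271, 298 and 359 in MSN mice, against 308, 330 and 343 in ICR mice. The median was lower in MSN mice, but the highest of all 12 values was that of MSN replicate 5, the mouse with the lowest Mmut. That mouse was also the lowest MSN mouse in Pcca and the highest MSN mouse in Mmab. The log2 fold change of Mmaa was -0.10 (95% interval -0.23 to 0.02, adjusted p = 0.506 from limma), and without MSN replicate 5 it was -0.15 (adjusted p = 0.232 from limma). Leaving out each of the 12 arrays in turn gave -0.15 to -0.07, with adjusted p from limma of 0.232 to 0.687.
Mmab, the adenosyltransferase that makes adenosylcobalamin, read 411, 458 and 487 in MSN mice, against 381, 453 and 481 in ICR mice. The strains overlapped almost fully, with a log2 fold change of 0.02 (95% interval -0.10 to 0.14, adjusted p = 0.907 from limma). Mmab lies beside Mvk, the mevalonate kinase gene of cholesterol synthesis, whose log2 fold change was -0.00 (95% interval -0.12 to 0.12, adjusted p = 0.994 from limma).

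Shared cobalamin processing was measured by Mmachc and Mmadhc. Mmachc encodes the protein that strips the upper ligand from incoming cobalamin, and it read 1848, 2016 and 2093 in MSN mice, against 1869, 1980 and 2070 in ICR mice. The log2 fold change was 0.02 (95% interval -0.06 to 0.11, adjusted p = 0.844 from limma), the narrowest interval of the 10 genes.
Mmadhc, the partner that directs cobalamin to the mutase or to methionine synthase, read 747, 799 and 872 in MSN mice, against 647, 755 and 848 in ICR mice. Its log2 fold change of 0.11 was the highest of the 10 genes, and it did not pass the test (95% interval -0.03 to 0.24, adjusted p = 0.530 from limma). The ICR mice spread widely in this gene, and 3 of them lay below every MSN mouse.

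Methionine synthase, the other cobalamin enzyme, did not differ beyond the spread between mice. Mtr, which encodes the enzyme that turns homocysteine into methionine, read 420, 453 and 456 in MSN mice, against 406, 433 and 484 in ICR mice. All MSN values lay within the ICR range, and the log2 fold change was 0.02 (95% interval -0.08 to 0.11, adjusted p = 0.891 from limma).
Mtrr, the reductase that reactivates methionine synthase, read 427, 438 and 466 in MSN mice, against 410, 455 and 482 in ICR mice. Again the ICR range enclosed the MSN range, with a log2 fold change of -0.03 (95% interval -0.12 to 0.07, adjusted p = 0.837 from limma).

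Regulators of Mmachc were measured too. In humans, HCFC1, THAP11 and ZNF143 act at the start of this gene, and changes in them lower its expression. Thap11 had a log2 fold change of -0.01 (95% interval -0.11 to 0.10, adjusted p = 0.966 from limma) and Hcfc1 one of -0.00 (95% interval -0.08 to 0.07, adjusted p = 0.979 from limma), and the third had no cluster of its own. RefSeq promoters of GRCm38.p6, which run from 250 bases before to 50 after a gene's start, were given for 8 of the 10 genes, and those of Mmut and Mmadhc were not used here. The letters ACTACA, then any 2 bases, then TCCC, part of a motif that THAP11 and ZNF143 are known to bind, were searched on both strands and occurred in promoters of 2 of these 8 genes, Mmachc and Mtr, and in promoters of 2.08% of all 27025 genes, or 1.81% of all 32851 promoters. Both sequences are shown because they mark the gene of shared processing and the methionine synthase gene, with the matched bases in capitals. The match lies on the reverse strand of the Mmachc sequence and on the forward strand of the Mtr sequence. It is a match of letters only, and neither gene differed between strains beyond the spread.
Mmachc, chr4:116708336-116708635, minus strand: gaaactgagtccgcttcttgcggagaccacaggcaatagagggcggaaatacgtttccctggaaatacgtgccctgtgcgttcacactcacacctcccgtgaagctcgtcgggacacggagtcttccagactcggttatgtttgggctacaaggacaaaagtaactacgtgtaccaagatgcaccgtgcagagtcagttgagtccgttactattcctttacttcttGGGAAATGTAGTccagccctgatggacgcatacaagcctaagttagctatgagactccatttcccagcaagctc
Mtr, chr13:12258064-12258363, minus strand: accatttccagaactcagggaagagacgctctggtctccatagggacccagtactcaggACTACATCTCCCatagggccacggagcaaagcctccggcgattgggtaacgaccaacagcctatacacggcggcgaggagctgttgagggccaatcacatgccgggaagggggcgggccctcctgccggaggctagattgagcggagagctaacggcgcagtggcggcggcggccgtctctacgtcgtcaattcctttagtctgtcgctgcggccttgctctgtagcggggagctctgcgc

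Spread among mice differed between genes. On the log2 scale, 8 of the 10 genes had a smaller SD in the inbred MSN mice than in the outbred ICR mice, with a median SD of 0.0679 in MSN and 0.0929 in ICR mice. Of all 23410 clusters 11697 had the smaller SD in MSN mice, and the medians were 0.0868 in MSN and 0.0855 in ICR mice. Mmadhc had an SD of 0.0738 in MSN and 0.153 in ICR mice. Mmaa went the other way, with 0.144 in MSN and 0.0606 in ICR mice. In Mmut the spread was alike, with 0.0808 in MSN and 0.0874 in ICR mice.

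Beyond the 10 genes, 6 lists of related genes were read in the same fit, and 84 of their 92 genes had a cluster of their own. None of the 84 was called by limma, where 0.777% of all clusters were called. An unadjusted p under 0.05 was reached by 12, 9 higher and 3 lower in MSN mice, a share close to the 12.7% of all clusters. The median log2 fold change of the 84 genes was 0.01, and 50 were above 0. That balance moved with array scaling, since quantile normalization placed 61 above 0 and scaling to the same median 67.
Cobalamin uptake and lysosomal export held 9 genes, of which 0 were called, 2 had an unadjusted p under 0.05 and 6 were above 0. Cd320, the cell surface receptor for cobalamin bound to transcobalamin, read 417, 435 and 458 at its lowest, median and highest in MSN mice, against 343, 377 and 436 in ICR mice. Its log2 fold change was 0.17 (95% interval 0.06 to 0.28, adjusted p = 0.172 from limma), and the strains overlapped. Tcn2, which encodes transcobalamin itself, had a log2 fold change of 0.21 (95% interval 0.00 to 0.42, adjusted p = 0.391 from limma), and Lmbrd1, needed for export of cobalamin from the lysosome, had -0.06 (95% interval -0.12 to 0.01, adjusted p = 0.479 from limma).
The breakdown of the branched-chain amino acids valine and isoleucine supplies propionyl-CoA. Of 20 measured genes of branched-chain breakdown 0 were called, 4 had an unadjusted p under 0.05 and 15 were above 0, with a median log2 fold change of 0.04. Of all clusters 12.7% had such a p and 54.5% were below 0. After quantile normalization 17 of these 20 genes were above 0, and 19 with arrays scaled to the same median. The 3 with the smallest P-values were Bcat1 and Bcat2, the cytosolic and mitochondrial aminotransferases of the pathway, at 0.11 and 0.11, and Hsd17b10, a mitochondrial dehydrogenase of isoleucine breakdown, at 0.14, with adjusted p from limma of 0.174, 0.268 and 0.174. Aldh6a1, the enzyme of valine breakdown that releases propionyl-CoA, had a log2 fold change of 0.10 (95% interval 0.02 to 0.19, adjusted p = 0.301 from limma).
Among 10 measured acyl-CoA and biotin enzymes 0 were called and 1 had an unadjusted p under 0.05. This was Clybl, a mitochondrial citramalyl-CoA lyase whose loss in humans goes with low vitamin B12, at a log2 fold change of -0.18 (95% interval -0.32 to -0.04, adjusted p = 0.259 from limma). Its lowest, median and highest intensity was 1134, 1240 and 1264 in MSN mice, against 1149, 1423 and 1531 in ICR mice, so the strains overlapped. Acsf3, the synthetase that activates malonate and methylmalonate, was at -0.06 and Acss1, which activates acetate in mitochondria, at 0.08, with adjusted p from limma of 0.596 and 0.624.
The product of the mutase enters the citric acid cycle, whose 16 measured genes included 0 called and 0 at an unadjusted p under 0.05. Suclg1, a subunit of the ligase that uses succinyl-CoA, had a log2 fold change of 0.08 (95% interval -0.01 to 0.16, adjusted p = 0.450 from limma). Idh3b, a subunit of isocitrate dehydrogenase, was at 0.03, and Cs, citrate synthase, at 0.04.

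Methionine, homocysteine and folate genes surround methionine synthase. None of the 27 measured was called by limma, and 5 reached an unadjusted p under 0.05, with 3 higher and 2 lower in MSN mice. Of all clusters 12.7% reached that level and 0.777% were called. In 2 of the 27 no MSN value overlapped an ICR value, and 1.44% of all clusters separated the strains in this way. Cbs, the cystathionine beta-synthase that draws homocysteine away toward cysteine, read 734, 745 and 800 at its lowest, median and highest in MSN mice, against 652, 693 and 715 in ICR mice. The log2 fold change was 0.13 (95% interval 0.06 to 0.21, adjusted p = 0.103 from limma), and it was called in 2 other settings, with array weights and among clusters above the median mean.
Gcsh, the H protein of glycine cleavage, read 315, 336 and 412 in MSN mice, against 290, 300 and 311 in ICR mice. The highest MSN value, 412, stood apart, and the log2 fold change was 0.19 (95% interval 0.07 to 0.30, adjusted p = 0.142 from limma). Aldh1l1, a folate enzyme that is also widely used as an astrocyte marker, was at 0.19 (95% interval 0.06 to 0.32, adjusted p = 0.187 from limma), while the 4 astrocyte markers named above were all below 0.

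**Figure D3:**
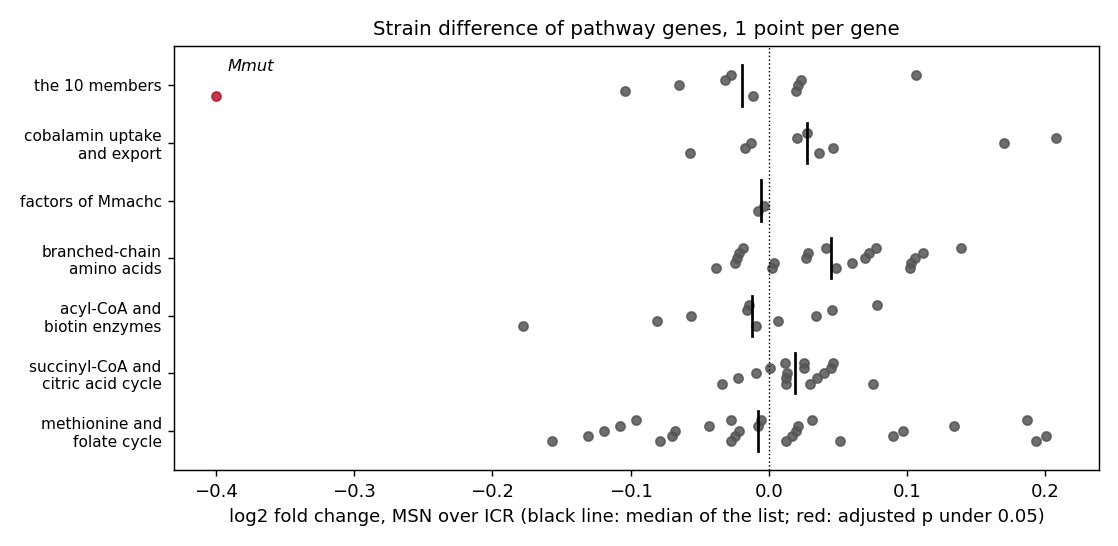
Log2 fold change of MSN over ICR for the 10 genes and for each gene of the 6 related lists, with 1 point per gene, black lines at the list medians and red for an adjusted p under 0.05. Mmut at -0.40 is the only red point and lies beyond the lowest of the other genes, Clybl at -0.18.

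Genes beside Mmut on chromosome 17 were read to see whether they differed between strains too. Each of the 10 measured genes on each side was read by its brightest cluster. Of these, 0 of 20 were called by limma, 1 had an unadjusted p under 0.05 and 12 were below 0. Of all clusters 0.777% were called and 12.7% had an unadjusted p under 0.05. The median log2 fold change of the 20 was -0.03. Most of them were dim, since 14 of the 20 had a mean intensity under 382, the median over all clusters, which 1 of the 10 pathway genes did. Cenpq, the kinetochore gene next to Mmut on one side, had a log2 fold change of 0.03 (95% interval -0.16 to 0.22, adjusted p = 0.911 from limma).
Ptchd4, a patched-domain gene next to it on the other side, has 2 clusters. The brighter one was at -0.10 (95% interval -0.22 to 0.02, adjusted p = 0.506 from limma). The dimmer one averaged 560 in MSN mice, against 647 in ICR mice, without overlap between strains. Its log2 fold change was -0.20 with a standard error of 0.0467, and limma gave an adjusted p = 0.0629. The nearest 5 genes on that side all had log2 fold changes below 0. Among the 20 brightest clusters the lowest P-value was that of Adgrf2, an adhesion receptor gene, at -0.12 (95% interval -0.23 to -0.01, adjusted p = 0.367 from limma). The dimmer Ptchd4 cluster, which was not among these 20, had a lower unadjusted p of 0.000677 from limma. Gene order was taken from RefSeq GRCm38.p6, and the genome build of the array annotation was not used.

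**Figure D4:**
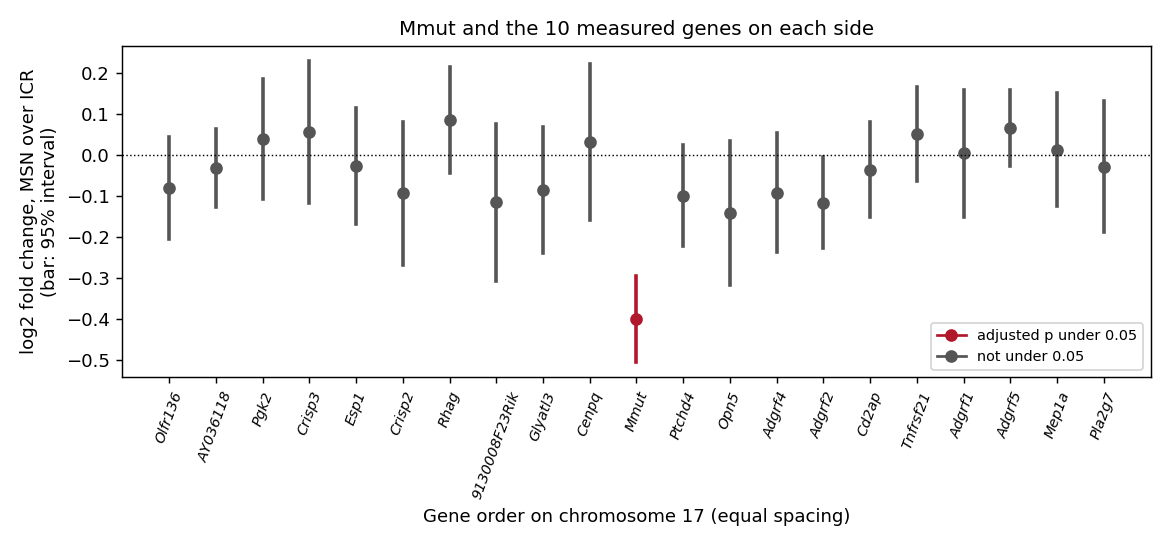
Log2 fold change of MSN over ICR with its 95% interval for Mmut and the 10 measured genes on each side of it on chromosome 17, spaced evenly in gene order, with red for an adjusted p under 0.05. Mmut at -0.40 stands below its neighbors, whose values run from -0.14 to 0.09. Each neighbor is read by its brightest cluster, and the dimmer Ptchd4 cluster, at -0.20, is not drawn.

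The nearest measured gene on each side of the other 9 genes gave 18 more. None of them was called by limma, where 0.777% of all clusters were called. An unadjusted p under 0.05 was reached by 4, and by 12.7% of all clusters. The lowest adjusted p was that of Lypd6, a regulator of nicotinic receptors beside Mmadhc, which averaged 928 ± 59.5 in the MSN strain, against 1101 ± 99.3 in the ICR strain (SD, n = 6 each). The strains overlapped, and the log2 fold change was -0.24 (95% interval -0.37 to -0.11, adjusted p = 0.0863 from limma). It was called in 2 other settings, with trended and robust eBayes and among clusters above the median mean. Mmadhc itself was at 0.11. The other genes with an unadjusted p under 0.05 were Ube3b beside Mmab at 0.13, Actn2 beside Mtr at 0.16 and Smad1 beside Mmaa at -0.09. Their adjusted p values from limma were 0.203, 0.282 and 0.323. Prdx1, a peroxiredoxin gene beside Mmachc, was at 0.08 and Fastkd3, a mitochondrial RNA gene beside Mtrr, at 0.04, with adjusted p from limma of 0.604 and 0.727.

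The clusters most like Mmut over the 12 mice were those of Mxra8, Tcp11l1, Glrp1, Idua and Zfp672. Likeness was the root mean square difference between log2 profiles, each centered on its own mean over the 12 mice, among 21789 clusters with a single gene name, and it was 0.0730 for Mxra8 and 0.0992 for Zfp672. A flat profile would differ from Mmut by 0.214. The measure picks genes that are lower in MSN mice, so their strain differences are a description: the log2 fold changes were -0.37 for Mxra8, -0.30 for Tcp11l1, -0.29 for Glrp1, -0.29 for Idua and -0.30 for Zfp672. The 5 genes lie on chromosomes 4, 2, 1, 5 and 11, apart from Mmut. Idua encodes a lysosomal enzyme and Mxra8 a cell surface protein.

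**Figure D5:**
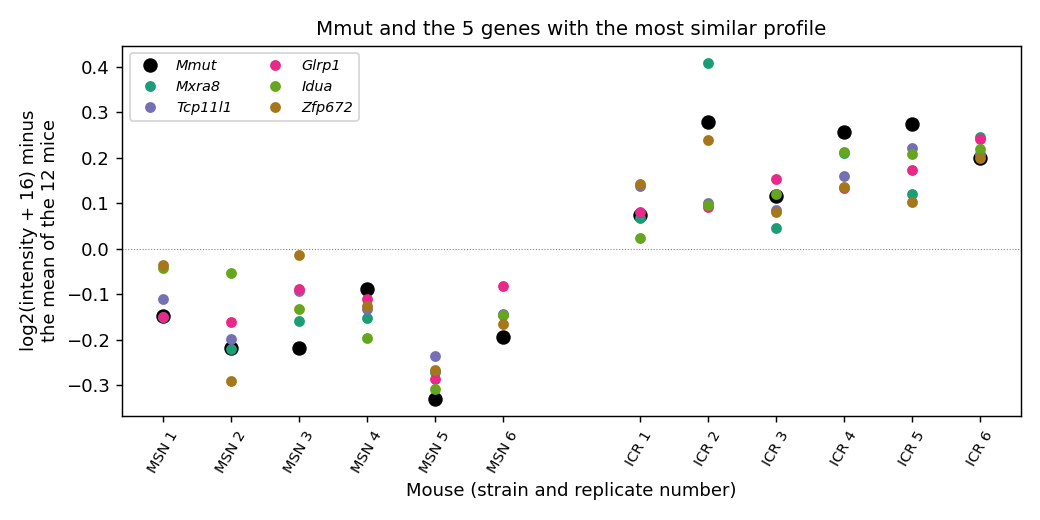
Log2(intensity + 16) minus the mean of the 12 mice, for Mmut in black and the 5 genes with the most similar profile in color, by strain and replicate number. All 6 genes lie below 0 in the 6 MSN mice and above 0 in the 6 ICR mice.

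Over the whole series, 182 of 23410 clusters were called, 71 higher and 111 lower in MSN mice. The split was 131 higher and 109 lower after quantile normalization, and 115 higher and 89 lower with equal array medians. Array medians ranged from 373 to 389, and arrays of the same strain correlated at 0.992 to 0.997, those of different strains at 0.992 to 0.996. Markers of hippocampal excitatory neurons were bright, with a summed intensity over 6 genes of 28759 to 31016 in MSN mice and 28436 to 30019 in ICR mice. Of these 6 genes, 4 were above 0 and 2 below, and 2, both higher in MSN mice, had an unadjusted p under 0.05. Of 3 oligodendrocyte markers all were above 0, and 2 had an unadjusted p under 0.05, a level that 12.7% of all clusters reached. The 4 choroid plexus markers ranged in sum from 8423 to 19953 in MSN mice and from 6897 to 19699 in ICR mice. Their log2 fold changes were 0.29 to 0.82, all above 0, and 0 of them had an unadjusted p under 0.05. All 4 microglia, 3 endothelium and 3 striatum markers were above 0 too, and all 3 thalamus markers were below 0. Of the 3 inhibitory neuron markers 2 were above 0 and 1 was below. In these 5 lists 0 markers had an unadjusted p under 0.05. No marker of any list was called by limma, and their part in the results was not tested. With 6 arrays per strain, precision is limited by their number.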

How the data were processed

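Total RNA of hippocampus was hybridized to Affymetrix Mouse Gene ST arrays, 1 per mouse. The authors made the deposited intensity values, on a linear scale, with PLIER and a GC-bin background correction in Affymetrix Power Tools 1.12.0. Strains were taken from the sample titles. To each intensity 16 was added and log2 was taken, and limma 3.58.1 in R 4.3.3 was fitted with strain as the only term over 23410 clusters with a gene, with Benjamini-Hochberg adjustment. The fit was run on simulated data with known shifts. Their noise was drawn separately for each cluster, so deviations shared by many clusters of an array were not tested. Gene names came from the platform annotation, updated by gene ID. A list gene with several clusters was read by the one with the highest mean. The 10 genes and all lists were chosen with earlier results of these data known.

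Named genes are the 10 genes, their neighbors, up to 3 genes per list with the smallest P-values, and the 5 most like Mmut. Cell type markers were a separate list, of which the 4 of astrocytes are named. Aldh6a1 and the dimmer Ptchd4 cluster were added with their values known. Alternatives were untransformed intensities, pseudocounts of 1 and 64, quantile or median scaling, trended and robust eBayes, clusters above the median mean, array weights, a block for replicate number, inclusion of clusters without a gene, only 1 cluster for a gene, and leaving out each array. Each array came from a separate mouse, with 6 per strain. No array date or batch was given in the sources used here. Groups of 6 values were examined with Dixon's test.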

Additional observations from a re-analysis of the deposited data

Results flagged for a closer look

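Of 140 groups of 6 mice, those of 70 genes that did not include the cell type markers or Aldh6a1, 12 held a value that stood apart from the rest of its strain, where chance flags about 1 group in 20. Each is given as the gap to the nearest mouse over the whole range of the strain on the log2 scale. Among the 20 groups of the 10 pathway genes there was 1, Mmab in ICR mice, where replicate 3 was lowest at an intensity of 381 with the next mouse at 445 (0.671). Among genes beside Mmut these were Cenpq in MSN mice with replicate 5 highest (0.672), Adgrf2 in MSN mice with replicate 2 highest (0.741) and in ICR mice with replicate 4 lowest (0.640), Pgk2 in ICR mice with replicate 6 lowest (0.780) and Esp1 in ICR mice with replicate 3 highest (0.658). Among genes beside the other 9 these were Smad1 in MSN mice with replicate 6 lowest (0.756) and in ICR mice with replicate 6 lowest (0.733), Fastkd3 in MSN mice with replicate 6 lowest (0.631) and BC048507 in ICR mice with replicate 2 highest (0.626). In the related lists these were Gcsh in MSN mice with replicate 1 highest (0.686) and Acsf3 in ICR mice with replicate 6 lowest (0.717).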

How the results depend on the processing

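The call of Mmut and the count of 1 called gene among the 10 were the same in all settings and left-out arrays, with a log2 fold change of -0.37 to -0.42 apart from untransformed intensities. The count over all clusters, 182, was 279 with a pseudocount of 64, 315 with array weights and 42 with the replicate number as a block, and 91 to 210 when 1 array was left out, with 103 without MSN replicate 3, 91 without MSN replicate 4, 118 without ICR replicate 5 and 93 without ICR replicate 6. Among the list genes 1 gene, Cbs, passed with array weights (adjusted p = 0.0495 from limma) and among clusters above the median mean (adjusted p = 0.0451), and among the neighboring genes 1, Lypd6, passed with trended and robust eBayes (adjusted p = 0.0459) and among clusters above the median mean (adjusted p = 0.0489). The cause of these changes was not tested. The setting of clusters above the median mean held fewer clusters, and the effect of that was not tested either. In all settings a neighboring gene was read by its brightest cluster. The dimmer Ptchd4 cluster beside Mmut was therefore read in the main fit only, and whether it would pass elsewhere was not tested. The replicate numbers were not taken as pairs of mice. Same-numbered arrays deviated together with correlations of -0.13 to 0.13 and 1 of 6 above 0.1. Arrays with different numbers were not compared, so these values cannot decide whether the numbers pair mice. Under the block Mmut had an adjusted p = 0.0275 from limma, and no other call among these genes changed. Mmaa, dim on these arrays, was not tested among clusters above the median mean.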
